A study of Mus musculus with 24 samples.

Results

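RNA of MC38 cells in which both Cmas and C1galt1c1 (COSMC) had been targeted (MC38-DKO) was compared with RNA of the mock line MC38-MOCK#1. MC38 is a colorectal cancer cell line from C57BL/6 mice. The comparison takes 6 of the 24 libraries in the series, 3 from each line, and all 21738 of 52636 listed genes that had at most 4 zeros among those 6 libraries. MC38-DKO carries the labels CMAS and COSMC as target genes of a CRISPR-Cas9 knockout, and MC38-MOCK#1 carries no target gene but went through the same CRISPR-Cas9 procedure, for which the study's methods describe an empty construct. In both lines replicates 1, 2 and 3 were taken at passages 4, 5 and 6, and both were grown with puromycin. Of the other 6 lines, the knockouts of Cmas alone (MC38-CMAS KO) and of COSMC alone (MC38-COSMC KO) were also taken at passages 4 to 6. Untreated MC38-WT, which was kept without puromycin, was taken at passages 7 to 9. The mock line MC38-MOCK#2 was at passages 6 to 8. Of the CRISPR-dCas-VPR lines, FUT9 was at passages 6 to 8 and FUT4 at 7 and 8. Apart from the single knockouts, the other lines were thus mostly at later passages than MC38-DKO and MC38-MOCK#1. Each line is a single engineered line sampled 3 times, so that a difference between MC38-DKO and MC38-MOCK#1 which came from the knockouts and a difference which came from how either line was derived cannot be told apart, and p-values measure the spread between samples of a line. How the cells of MC38-DKO were selected is not given in the sources used here, whereas the COSMC knockout was selected in bulk on Tn antigen.

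Both genes act on O-glycans, the sugar chains attached to serine and threonine residues of secreted and surface proteins. T-synthase (C1galt1) adds galactose to the initial GalNAc (the Tn antigen), and it folds only with the help of its chaperone COSMC, encoded by C1galt1c1 on the X chromosome. Cmas activates sialic acid to CMP-sialic acid, the donor that all sialyltransferases use, so that loss of Cmas removes sialic acid from O-glycans, N-glycans and glycolipids alike. Cells that lack both are therefore known to carry short O-glycans without sialic acid.

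Values are normalized counts, that is, read counts scaled by a single factor per library and rounded. Totals of the 6 libraries lay between 11048959 and 11567786. In MC38-DKO replicate 1, 36 of the whole numbers from 1 to 100 were taken by no gene, which puts a read at about 1.56 normalized counts and the library at about 7071334 reads, below the other 5, in which 0 to 3 numbers were absent. A pair of libraries stood apart in interferon-induced genes (MC38-MOCK#1 replicate 3 and MC38-DKO replicate 1, described further down), and results are also given without them. Epithelial markers were at or near 0 in both lines. The summed level of 15 of them was 13 to 24 normalized counts, with Cdh1 (E-cadherin) at 0 to 2 and Krt8 at 0 to 3, and the endothelial list summed to at most 15. Of 15 leukocyte markers Cd14 alone was above 10 normalized counts, at 243 to 320, and Ptprc (CD45) lay at 1 to 5. In fibroblast markers the lines held 499 to 716 normalized counts of Pdgfra. In bulk RNA, fewer cells of a type and less RNA per cell cannot be told apart.

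Cmas mRNA was about 3-fold lower in MC38-DKO, and C1galt1c1 mRNA was not called. Cmas (chr6:142756686-142775714, GRCm38) stood at 416, 384 and 386 normalized counts in MC38-MOCK#1 and at 142, 135 and 122 in MC38-DKO. The groups were far apart, and MC38-DKO lay next to the 93 to 126 of MC38-CMAS KO. The log2 fold change was -1.57 ± 0.11 (SE, adjusted p = 0.00235, limma), and the difference between MC38-DKO and MC38-CMAS KO was 0.25 ± 0.15 (adjusted p = 0.392). C1galt1c1 (chrX:38630785-38635087) stood at 242, 220 and 251 in MC38-MOCK#1 and at 206, 166 and 175 in MC38-DKO. The 3 libraries of MC38-DKO were all lower, with a log2 fold change of -0.38 ± 0.12 and a 95% interval of -0.66 to -0.11, but the change did not pass the adjustment over all genes (adjusted p = 0.459). In MC38-COSMC KO the gene held 124 to 163 normalized counts. Of the lines without a COSMC target, MC38-CMAS KO (152 to 215) and MC38-MOCK#2 (154 to 217) spanned the level of MC38-DKO. MC38-WT, FUT4 and FUT9 held 184 to 244. C1galt1, the enzyme itself, stood at 312, 324 and 277 in MC38-MOCK#1 and 367, 341 and 320 in MC38-DKO (log2 fold change 0.17, 95% interval -0.06 to 0.41, adjusted p = 0.722). Transcript levels of an edited gene do not show whether its protein is made, so the label of MC38-DKO was checked here for Cmas only.

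Few genes passed the test. At an adjusted p below 0.05, 20 of 21738 genes (0.092%) were called, of which 15 fell (0.069%) and 5 rose (0.023%) in MC38-DKO. At an unadjusted p below 0.05 there were 1632 genes (7.51%). The 3 libraries of each line did not overlap in 11.2% of the genes tested, among them all 20 called genes. Among 13483 genes with a mean of at least 10 normalized counts the median standard error of the log2 fold change was 0.12, and for 84.6% of them the 95% interval lay within ±1. The 20 calls leaned on every library: leaving out any of the 6 in turn left 0 genes (without MC38-MOCK#1 replicate 1 or 3, or MC38-DKO replicate 1 or 2), 1 gene (without MC38-MOCK#1 replicate 2) or 4 genes (without MC38-DKO replicate 3), with 1393 to 2042 genes at an unadjusted p below 0.05. Cmas and Gm4617 were called in 1 of those 6 fits, and the other 18 genes in 0, although each kept its direction throughout. When all 8 lines shared an estimate of the spread, 159 genes were called, 18 of the 20 among them. Ripk3 and Gm4617 were then lost.

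**Figure D1:**
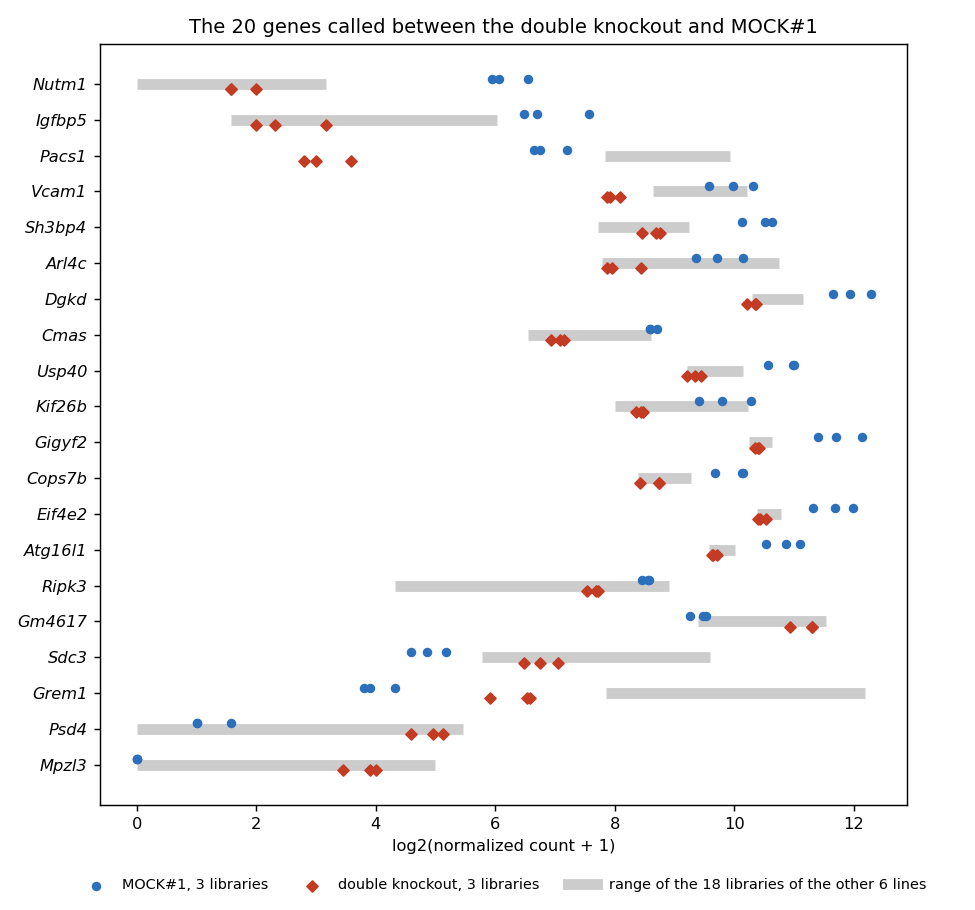
Normalized counts on a log2 scale (x axis, log2 of the value plus 1) of the 20 called genes, ordered from the largest fall at the top to the largest rise at the bottom, with the 3 MC38-MOCK#1 libraries as circles, the 3 MC38-DKO libraries as diamonds and the range of the 18 libraries of the other 6 lines as a grey bar. MC38-MOCK#1 lies outside the grey bar in 12 genes and MC38-DKO in 3.

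In Nutm1 and Igfbp5, the genes with the largest falls, MC38-MOCK#1 stood above all other lines. Nutm1, a chromatin protein normally found in testis, stood at 66, 61 and 93 normalized counts in MC38-MOCK#1 and at 3, 2 and 2 in MC38-DKO, a log2 fold change of -4.47 ± 0.33 (adjusted p = 0.00325). In the other 6 lines it held 0 to 8, so that MC38-MOCK#1 was the line with signal. Igfbp5, which binds insulin-like growth factors, stood at 88, 103 and 189 against 8, 4 and 3 (-4.42 ± 0.41, adjusted p = 0.00634), and at 2 to 64 elsewhere. The level of the other lines is therefore given beside many of the falls in MC38-DKO. Of the 20 called genes, all 3 MC38-MOCK#1 libraries but not MC38-DKO lay outside the range of the 18 other libraries in 10, MC38-DKO but not MC38-MOCK#1 in 1, both in 2, and neither in 7. Several of the 10 are neighbours on chromosome 1, described further down. Over all genes tested MC38-MOCK#1 lay outside in 4.46% and MC38-DKO in 4.99%, each counted whether or not the other line did too.

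Vcam1 was the called gene in which MC38-DKO alone stood apart. This adhesion receptor, which binds α4β1 integrin on leukocytes, stood at 766, 1007 and 1281 normalized counts in MC38-MOCK#1 and at 232, 271 and 242 in MC38-DKO. All MC38-DKO libraries lay below the 400 to 1193 of the other 6 lines, while MC38-MOCK#1 overlapped them. It fell by 2.00 ± 0.17 on the log2 scale (adjusted p = 0.00423). Against the single knockouts Vcam1 was lower too, by a log2 fold change of -1.72 from MC38-CMAS KO and of -1.57 from MC38-COSMC KO.

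Pacs1 and Grem1 were low in both lines, to a different degree. Pacs1, a sorting protein of the trans-Golgi network, stood at 99, 107 and 146 normalized counts in MC38-MOCK#1 and at 11, 6 and 7 in MC38-DKO (-3.74 ± 0.29, adjusted p = 0.00325), against 227 to 972 in the other lines. Grem1, a secreted antagonist of bone morphogenetic proteins, ran the other way, at 19, 13 and 14 in MC38-MOCK#1 and 59, 95 and 92 in MC38-DKO (2.33 ± 0.28, adjusted p = 0.027). Every other line held 230 to 4676, so that the rise in MC38-DKO left it below all 18 of those libraries.

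The remaining rises were Sdc3, Psd4, Mpzl3 and Gm4617. Sdc3 (syndecan-3, a heparan sulfate proteoglycan) rose from 35, 28 and 23 to 88, 132 and 107 normalized counts, a log2 fold change of 1.89 ± 0.24 (adjusted p = 0.0338). Other lines held 54 to 775, and MC38-MOCK#1 was the lowest. Psd4, an exchange factor for the small GTPase Arf6, rose from 2, 1 and 1 to 34, 23 and 30 (adjusted p = 0.0171), within the range of other lines. Mpzl3, a membrane protein with an immunoglobulin-like domain, was at 0 in all 3 MC38-MOCK#1 libraries and at 15, 14 and 10 in MC38-DKO. Set against a floor of 3 normalized counts per library it was at least 4.33-fold higher (adjusted p = 0.0184). MC38-COSMC KO held 0 to 1 of it and MC38-CMAS KO 12 to 22. FUT4, which has no Cmas target, was the highest line at 22 to 31. MC38-WT, MC38-MOCK#2 and FUT9 held 0 to 5. Gm4617 is a processed pseudogene, whose short reads can be split between near-identical copies, and its values are uncertain. It stood at 710, 614 and 740 against 2513, 2518 and 1962, but libraries of MC38-CMAS KO ranged from 695 to 2979, so that levels within a line spanned the same distance. Ripk3, the kinase of necroptosis, is named after its values were seen. It stood at 350, 378 and 379 in MC38-MOCK#1 and 184, 211 and 204 in MC38-DKO (-0.88 ± 0.10, adjusted p = 0.0215), and at 19 to 80 in MC38-CMAS KO, MC38-COSMC KO, MC38-WT and FUT9. MC38-MOCK#2, at 204 to 243, lay at the level of MC38-DKO, and FUT4, at 413 to 480, above MC38-MOCK#1.

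Of the 15 falls, 10 were on chromosome 1, and 8 of those were neighbours. Between Pde6d and Sh3bp4 (chr1:86542994-89155068, GRCm38, 2.61 Mb), 12 genes had a mean of at least 50 normalized counts, a stretch chosen after the values were seen. Of these, 11 were lower in MC38-DKO and 8 were called, and the median log2 fold change was -1.44. Sh3bp4, an adaptor of endocytosis, stood at 1122, 1462 and 1586 in MC38-MOCK#1 and at 351, 415 and 430 in MC38-DKO (-1.79 ± 0.14, adjusted p = 0.00325). Dgkd (diacylglycerol kinase delta) stood at 3208, 3905 and 4997 against 1192, 1318 and 1310 (-1.64 ± 0.14, adjusted p = 0.00462). Usp40, a deubiquitinating enzyme, stood at 1524, 2033 and 2051 against 590, 646 and 699 (-1.52 ± 0.12, adjusted p = 0.00372). In each the lines were well apart. The models of Dgkd (ending at 87945180) and Usp40 (starting at 87945119) overlap on opposite strands, and whether reads were counted by strand is not given in the sources used here.

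The other called members of the stretch belong to unrelated functions. Arl4c, a small GTPase, fell from 657, 840 and 1138 to 234, 246 and 347 normalized counts (adjusted p = 0.0397). Gigyf2 and Eif4e2, partners in the repression of translation, fell by 1.36 ± 0.16 and 1.21 ± 0.15 on the log2 scale. Cops7b, a subunit of the COP9 signalosome, fell by 1.35 ± 0.14, and Atg16l1, which acts in the formation of autophagosomes, by 1.17 ± 0.13. The 4 members not called were Dis3l2 at a log2 fold change of -1.99 (adjusted p = 0.0878), Pde6d at -1.61 (adjusted p = 0.0854), Hjurp at -0.61 (adjusted p = 0.111) and the pseudogene Gm6136 at 0.06 (adjusted p = 0.976). The nearest genes of this level outside were Ptma on one side, at -0.42 (adjusted p = 0.433), and Agap1 on the other, at -0.28 (adjusted p = 0.485), neither of them called.

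**Figure D2:**
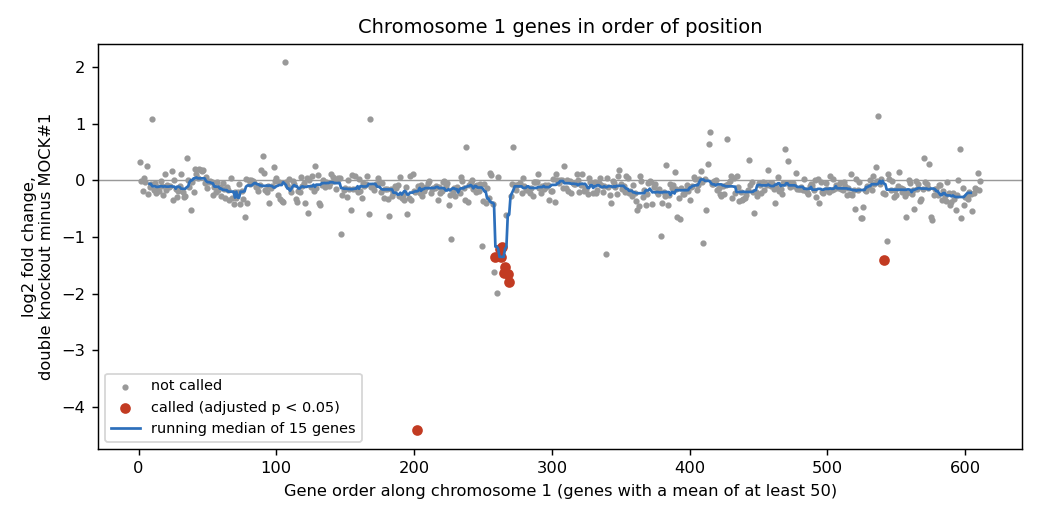
The log2 fold change of MC38-DKO minus MC38-MOCK#1 (y axis) for the 611 chromosome 1 genes with a mean of at least 50 normalized counts, in order of position (x axis), with called genes as large points and the running median of 15 genes as a line. The line drops to -1.35 over the stretch. In windows that hold no gene of the stretch it runs between -0.31 and 0.05, around the chromosome's median of -0.13.

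Set beside the other lines, the high level belonged to MC38-MOCK#1. In 9 of the 12 genes all 3 MC38-MOCK#1 libraries lay above all 18 libraries of the other lines, and in 0 of the 12 did the 3 MC38-DKO libraries lie outside them. The exceptions were Dis3l2, Arl4c and Gm6136. Gigyf2, for example, stood at 2713, 3339 and 4508 normalized counts in MC38-MOCK#1, at 1343, 1373 and 1308 in MC38-DKO and at 1214 to 1595 elsewhere. The level was not constant within MC38-MOCK#1. The mean over the 8 called genes, relative to all 24 libraries, was 0.76, 1.12 and 1.36 at passages 4, 5 and 6. Each passage is 1 library, and a trend with passage was not tested. No running median of 15 genes on another chromosome went below -0.29 or above 0.33. Chromosome 1 as a whole had a median log2 fold change of -0.13 over 783 genes with a mean of at least 10, against -0.04 to 0.04 on the other 19 chromosomes. Outside the stretch the chromosome 1 median was also -0.13, over 599 genes with a mean of at least 50. Relative to the 18 libraries of the other lines, the median of the 257 such genes before the stretch was 0.09, 0.15 and 0.18 in MC38-MOCK#1 and 0.04, 0.03 and 0.02 in MC38-DKO, and that of the 342 after it was 0.03, 0.08 and 0.11 against -0.04, -0.03 and -0.06. Chromosome copy number was not measured in these files, and its part in the result was not tested. The called chromosome 1 genes outside the stretch were Igfbp5 and Kif26b, a kinesin family member that fell from 683, 886 and 1242 to 355, 326 and 345 (adjusted p = 0.0492). MC38-COSMC KO held 329 to 357 of Kif26b and FUT9 held 257 to 466. In MC38-CMAS KO, MC38-WT, MC38-MOCK#2 and FUT4 it lay at 554 to 1201.

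**Figure D3:**
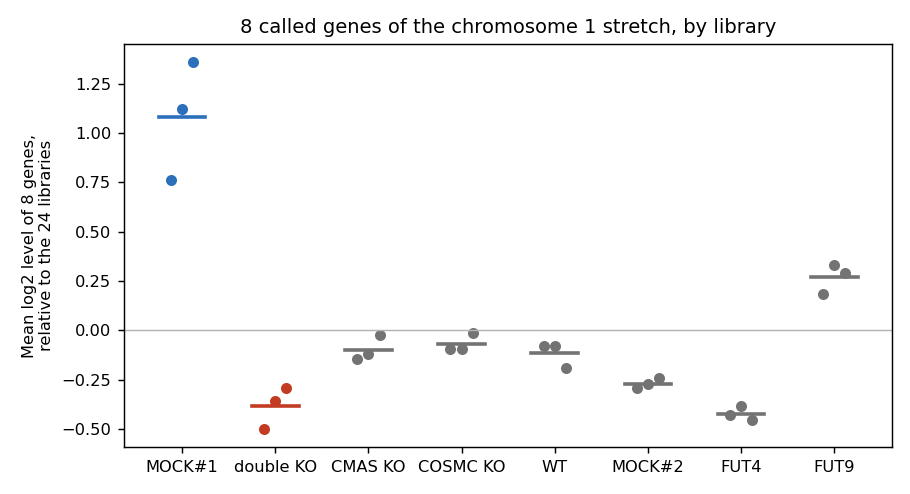
Mean log2 level of the 8 called genes of the chromosome 1 stretch in each of 24 libraries, relative to each gene's mean over all libraries (y axis), by line (x axis), with points for libraries and bars for line means. MC38-MOCK#1 lies at 0.76, 1.12 and 1.36 in replicates 1, 2 and 3, and all other libraries between -0.50 and 0.33.

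Of 119 genes that averaged at least 50 normalized counts and changed by more than 1 on the log2 scale, 15 were called. A further 43 had no overlap between the lines but were not called, 30 lower and 13 higher in MC38-DKO. Several of the 43 are processed pseudogenes. Over all genes tested, whatever the size of the change, the lines did not overlap in 11.2%. In 61 more the libraries overlapped. The following were chosen after their values were seen. Bmper, a regulator of bone morphogenetic proteins like Grem1, stood at 28, 26 and 26 normalized counts in MC38-MOCK#1 and 87, 66 and 84 in MC38-DKO (1.52 ± 0.20, adjusted p = 0.0523). The other 6 lines spanned 0 to 695 of it. Igf2r, the mannose-6-phosphate receptor, stood at 268, 292 and 421 against 715, 632 and 615 (1.02 ± 0.16, adjusted p = 0.0878), and at 923 or more in every other line. On the lower side, Sulf2, which trims sulfate from heparan sulfate, stood at 68, 97 and 204 against 8, 22 and 16 (adjusted p = 0.0878). The other lines held 238 to 1261 of Sulf2, apart from FUT4 at 0 to 11. Cdon, a Hedgehog co-receptor, stood at 564, 623 and 850 against 348, 297 and 276 (adjusted p = 0.0641), with 214 to 338 elsewhere.

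Among 615 genes tested from 26 lists of pathways and markers, 3 were called: Cmas, Vcam1 and Grem1. Counts of list members at an unadjusted p below 0.05 stand against 7.51% of all genes tested. In the O-glycan and sialic acid pathways Cmas was the only call. The core O-glycan list also holds the targeted genes. Of its 11 tested members 1 fell (Cmas) and 10 were not called. Their log2 fold changes had a median of -0.01 against 0 over all genes tested. Of the 11, 3 were at an unadjusted p below 0.05 (27.3%). The lines did not overlap in 4 of the 11 (36.4%), against 11.2% of all genes tested. Both targets are in that count too, so neither share describes the rest of the list. Of 14 members of the sialic acid list 1 fell (Cmas again) and 13 were not called (median -0.07), with 2 at an unadjusted p below 0.05. Slc35a1, the transporter that carries CMP-sialic acid into the Golgi, stood at 305, 316 and 361 normalized counts against 389, 315 and 345. Gne, which starts sialic acid synthesis, stood at 195, 187 and 240 against 195, 195 and 200. These levels overlapped between the lines. Renbp was lower in all 3 MC38-DKO libraries, at 149, 124 and 123 against 179, 164 and 203, but was not called (adjusted p = 0.437). None of 11 GalNAc transferases, which start O-glycosylation, was called, with 1 at an unadjusted p below 0.05 and a median of -0.10, and none of 5 other sialyltransferases, with 0 at an unadjusted p below 0.05. The most abundant GalNAc transferases were Galnt7 at 789 to 1010 and Galnt1 at 679 to 731 over the 6 libraries. St3gal4 lay at 324 to 367 and St3gal5 at 303 to 383.

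MHC class I genes showed no call among 23 tested, with 0 at an unadjusted p below 0.05 and a median log2 fold change of -0.12. H2-K1, a classical class I heavy chain, stood at 5030, 4788 and 6656 normalized counts in MC38-MOCK#1 and 6150, 5456 and 5716 in MC38-DKO, and B2m, its light chain, at 2120, 2206 and 2809 against 2578, 2521 and 2083. The lines overlapped in both. The most abundant members were the chaperones Canx at 14063 to 16937 and Calr at 15100 to 16200. Of 20 tested immune ligands and checkpoints 0 were called and 2 were at an unadjusted p below 0.05, of which Lgals9 stood at 262, 270 and 408 against 225, 150 and 122 (adjusted p = 0.362) and Lgals3 at 2472, 2328 and 2138 against 2518, 3062 and 2897 (adjusted p = 0.476). Lgals1 was the most abundant, at 9688 to 11313. Of 24 chemokines and cytokines 0 were called, with 2 at an unadjusted p below 0.05; Csf1 lay at 640 to 1296 and Tgfb1 at 657 to 780.

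Interferon-induced genes had the lowest median of all lists, and stood high in a single library of each line. Type I interferons switch on these antiviral genes through the ISGF3 and IRF factors, which bind the element GAAANNGAAA in their promoters. The 150 bases before the start of 3 such genes are shown from RefSeq (GRCm38.p6, 5′ to 3′ on the gene's strand) because the members were high in the same libraries, with each match to GAAANNGAAA or its complement TTTCNNTTTC in capitals. Isg15 is on the minus strand at chr4:156200819-156200968, Ifit1 on the plus strand at chr19:34640739-34640888, and Rsad2 on the minus strand at chr12:26456453-26456602.
Isg15: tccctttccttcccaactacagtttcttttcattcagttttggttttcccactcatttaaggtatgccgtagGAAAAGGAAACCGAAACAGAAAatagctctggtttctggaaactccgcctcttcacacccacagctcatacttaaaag
Ifit1: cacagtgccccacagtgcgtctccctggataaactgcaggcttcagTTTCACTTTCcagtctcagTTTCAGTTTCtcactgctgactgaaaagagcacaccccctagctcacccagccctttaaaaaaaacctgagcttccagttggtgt
Rsad2: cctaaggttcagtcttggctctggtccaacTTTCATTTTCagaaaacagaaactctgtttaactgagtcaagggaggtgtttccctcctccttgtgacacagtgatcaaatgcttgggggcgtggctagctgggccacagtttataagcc
The 3 matches in Isg15 overlap each other. In windows of 300 bases around the start, 26 of the 45 list members found in the promoter table (57.8%) held a match on either strand, and 3.99% of 27025 genes in that table. A match is a description of the letters and not a bound site.

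None of the 60 interferon genes was called, with 9 at an unadjusted p below 0.05. The median log2 fold change was -0.61, and 52 of the 60 (86.7%) had a lower mean in MC38-DKO, against 47.7% of all genes tested. The lines did not overlap in 4 of the 60 (6.67%), against 11.2% of all genes. Isg15, a ubiquitin-like modifier, stood at 74, 122 and 521 normalized counts in MC38-MOCK#1 and at 192, 80 and 67 in MC38-DKO. Rsad2 (viperin) stood at 147, 158 and 532 against 369, 117 and 65, and Ifit1, a sensor of viral RNA, at 28, 25 and 124 against 93, 25 and 29. In each of these genes the high values were MC38-MOCK#1 replicate 3 and MC38-DKO replicate 1. Over the list, MC38-MOCK#1 replicate 3 was the highest of its line in 56 of 60 genes and MC38-DKO replicate 1 of its line in 56. The summed level was 16986, 18356 and 31644 in MC38-MOCK#1 and 20371, 15529 and 14438 in MC38-DKO. Without these 2 libraries the median was -0.45 and no interferon gene was called, and over all genes 0 were called, with 2339 at an unadjusted p below 0.05. The most abundant members were Samhd1 at 2448 to 2838 and Ifitm3 at 1656 to 3863.

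**Figure D4:**
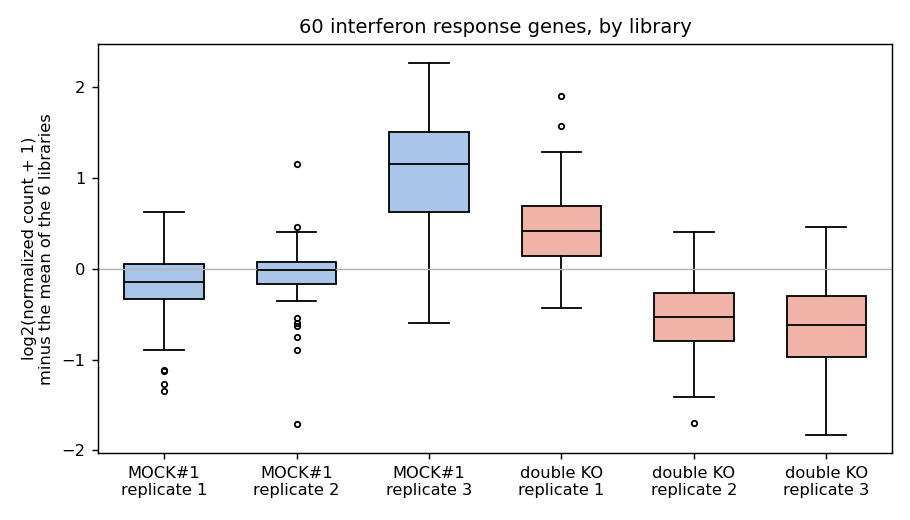
Levels of 60 interferon response genes in each of the 6 libraries, as log2 of the normalized count plus 1 minus the gene's mean over the 6 (y axis). Boxes span the quartiles with the median as a line, whiskers reach the farthest gene within 1.5 box lengths and points are genes beyond; MC38-MOCK#1 replicate 3 and MC38-DKO replicate 1 are the highest of their lines.

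In adhesion, matrix and growth factor pathways, single genes were called. Of 38 adhesion and mesenchymal genes 1 fell (Vcam1) and 37 were not called, with a median log2 fold change of -0.13. Of these 38, 9 were at an unadjusted p below 0.05 (23.7%), against 7.51% of all genes tested. The lines did not overlap in 14 of the 38 (36.8%), against 11.2% of all genes. The share was higher still in imprinted genes, at 6 of 13 (46.2%). Of 40 members of the BMP and TGF-beta pathway 1 rose (Grem1) and 39 were not called (median -0.07). There 9 were at an unadjusted p below 0.05, and the lines did not overlap in 9 (22.5% each). None of 28 collagens was called, with 8 at an unadjusted p below 0.05. Col4a1 lay at 4960 to 6622 normalized counts and Col5a1 at 3870 to 6934, and Col3a1 stood at 34, 24 and 65 against 234, 134 and 138 (2.08 ± 0.36, adjusted p = 0.129). None of 47 matrix proteins and proteases was called, with 7 at an unadjusted p below 0.05. Fn1 (fibronectin) ranged from 6022 to 17323 and Spp1 (osteopontin) from 4512 to 13239. In both, the highest library of MC38-MOCK#1 was replicate 3 and that of MC38-DKO replicate 1, as for the interferon genes. None of 26 Wnt targets and feedback genes was called, with 5 at an unadjusted p below 0.05. Fzd7, a Wnt receptor, was lower in all MC38-DKO libraries at 407, 381 and 439 against 523, 611 and 636 (adjusted p = 0.215), and Znrf3 lay at 339 to 454. None of 34 MAPK feedback genes was called, with 2 at an unadjusted p below 0.05, and Ier3 lay at 3353 to 5444 and Ccnd1 at 3636 to 4378.

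Metabolic, stress and proliferation lists held no called gene. Cholesterol and fatty acid synthesis had 6 of 34 genes at an unadjusted p below 0.05, all higher in MC38-DKO. The median log2 fold change was 0.04, and the lines did not overlap in 7 of the 34 (20.6%). Cyp51, a sterol demethylase, stood at 3793, 4767 and 4978 normalized counts against 7115, 5956 and 5994 (0.50 ± 0.12, adjusted p = 0.307), while Scd2 and Fasn overlapped. Glycolysis and hypoxia genes had 4 of 36 at an unadjusted p below 0.05 (median -0.11), with Pkm at 42555 to 50411 and Eno1 at 16042 to 27960. In the response of the endoplasmic reticulum and amino acids it was 2 of 31 (median -0.06), with Hspa5 at 15269 to 19577 and Hsp90b1 at 12992 to 15706. In the p53 pathway it was 2 of 29 (median 0.07), with Trp53 at 2262 to 3105 and Ckap2 at 1165 to 1336. Of 49 cell cycle genes 8 were at an unadjusted p below 0.05, with a median of 0 and no overlap in 14 (28.6%). Mki67 stood at 9476, 9034 and 8703 against 9780, 9181 and 8886, and Top2a at 8544 to 9425. Imprinted genes had 3 of 13 at an unadjusted p below 0.05 (median 0.30) and no overlap in 6 (46.2%). Peg10 lay at 1062 to 1198 and Impact at 634 to 882. HOX genes had 3 of 31 at an unadjusted p below 0.05 (median -0.07) and no overlap in 7 (22.6%). Hoxa7 lay at 444 to 611 and Hoxa9 at 352 to 469. The marker lists of epithelium, leukocytes, fibroblasts and endothelium had 1, 1, 1 and 0 genes at an unadjusted p below 0.05. The most abundant epithelial markers (Lgals4 and Vil1) and endothelial markers (Eng and Vwf) did not exceed 10 normalized counts, nor did Lyz2, the most abundant leukocyte marker after Cd14. The 13 genes of the mitochondrial genome were listed at 0 in all 6 libraries and were not tested.

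MC38-DKO lay closer to MC38-MOCK#1 than to either single knockout. Over 13515 genes with a mean of at least 10 normalized counts the root mean square difference of line means was taken on the log2 scale. Between MC38-DKO and MC38-MOCK#1 it was 0.36, the smallest of the 28 pairs of lines. For scale, single libraries of these lines lay 0.38 to 0.51 from the mean of their line's other libraries. The distances between lines are not corrected for that spread. The difference of line means was 0.59 between MC38-DKO and MC38-CMAS KO and 0.63 between MC38-DKO and MC38-COSMC KO. It was 0.40 between the single knockouts, which lay 0.42 and 0.46 from MC38-WT. By the same limma test 1515 genes (6.93%) were called between MC38-DKO and MC38-CMAS KO, 689 higher and 826 lower in MC38-DKO. Between MC38-DKO and MC38-COSMC KO it was 2838 (12.9%), 1353 higher and 1485 lower. Leaving out any of the 6 libraries in turn gave 231 to 761 genes in the former and 1050 to 2154 in the latter. Set beside these, and sharing the libraries of MC38-MOCK#1 with the comparison above, 1268 genes (5.76%) were called between MC38-CMAS KO and MC38-MOCK#1 and 2563 (11.6%) between MC38-COSMC KO and MC38-MOCK#1.

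**Figure D5:**
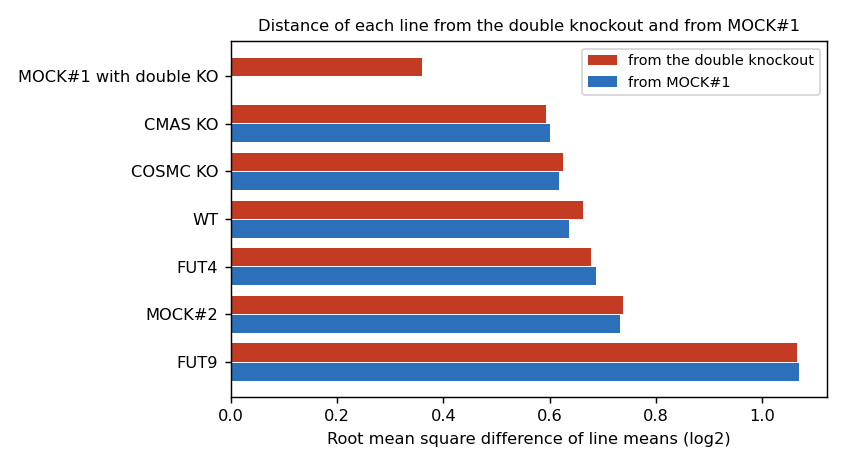
Root mean square difference between line means over 13515 genes (x axis, log2 scale) from MC38-DKO and from MC38-MOCK#1 to each line (y axis). MC38-DKO and MC38-MOCK#1 are 0.36 apart, and their distances to the other 6 lines run side by side, from 0.59 to 1.07.

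The lines MC38-DKO and MC38-MOCK#1 shared levels that no other line had. This was examined among the 10873 genes that averaged 50 normalized counts or more over the 24 libraries. All 6 libraries lay below the 18 others in 165 and above them in 221, together 3.55%. The same count was not made for other pairs of lines. The genes named here were chosen after their values were seen. Wfdc2, a secreted protease inhibitor, held 413 to 536 normalized counts in the 6 libraries and 7 to 98 elsewhere. Ovol2, an epithelial transcription factor, held 134 to 239 against 2 to 26, and Ass1, which makes argininosuccinate in the arginine pathway, 234 to 510 against 0 to 105. Pnma5 was low in both lines against 547 to 3016 elsewhere, but without overlap between them. It stood at 79, 107 and 161 in MC38-MOCK#1 and at 40, 28 and 30 in MC38-DKO. The label of MC38-DKO gives no derivation from the mock line, and the part that a shared parent culture has in the closeness was not tested.

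Whether the change with both targets equals the sum of the single changes was tested as an interaction, which sets the difference between MC38-DKO and MC38-COSMC KO against that between MC38-CMAS KO and MC38-MOCK#1. Of 21396 genes 4736 (22.1%) were called, 2372 positive and 2364 negative. Among the 20 genes called between MC38-DKO and MC38-MOCK#1 the interaction was called in 14. Those 20 were selected on libraries that also enter the interaction, so this count is no separate support. Grem1 had a log2 interaction of -7.92 ± 0.29 (adjusted p = 5.48e-10), since it was 4.95 higher in MC38-CMAS KO and 5.30 higher in MC38-COSMC KO than in MC38-MOCK#1 but 2.33 higher in MC38-DKO. Pacs1 had -8.04 ± 0.27 (adjusted p = 3.16e-10), with 2.08 and 2.22 in the single knockouts and -3.74 in MC38-DKO. For the called genes of the chromosome 1 stretch other than Arl4c it lay between 0.84 and 1.71. Sh3bp4, for example, differed from MC38-MOCK#1 by -1.80 in MC38-CMAS KO, -1.69 in MC38-COSMC KO and -1.79 in MC38-DKO. For Cmas the interaction was not called (0.46 ± 0.17, adjusted p = 0.0686), with -1.82 in MC38-CMAS KO, -0.21 in MC38-COSMC KO and -1.57 in MC38-DKO. For C1galt1c1 it was 0.73 ± 0.21 (adjusted p = 0.0201), with -0.39, -0.73 and -0.38. As MC38-MOCK#1 enters each of these differences, a level that was particular to MC38-MOCK#1 enters the interaction as well. So does a level that MC38-DKO and MC38-MOCK#1 share and the single knockouts lack, because both lines enter with the same sign. The 4736 calls therefore cannot be read as a count of knockout effects that do not add up.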

How the data were processed

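Total RNA of 24 samples was made into stranded mRNA libraries and sequenced in single reads. The authors trimmed reads with Sickle, aligned them to GRCm38 with HISAT2 2.0.4, processed them with SAMtools 0.1.19, counted them per gene with featureCounts (Subread 1.5.0-p3), leaving out reads that overlapped several genes, and normalized with edgeR 3.18.1. The deposited table holds score values, which are read counts scaled by a single factor per library and rounded to whole numbers, so that tests for raw counts were not used on them.

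Values were raised by a pseudocount of 1, log2 transformed and fitted without covariates for the 6 samples of each pair of lines (R 4.3.3, limma 3.58.1, eBayes with its trend option). Genes with more than 4 zeros among 6 samples (8 among 12 for the interaction) were left out, p-values were adjusted by Benjamini-Hochberg over all genes tested, and 0.05 was the threshold. Summaries were made with pandas 2.3.3 and numpy 2.4.6 and plots with matplotlib 3.10.9, all in Python 3.11.15. The fit was tested on simulated data. All columns of samples were mapped.

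Named genes were Cmas, C1galt1c1 and C1galt1; of the called genes that did not overlap and had a mean of at least 50 in the higher line, the 12 largest falls and rises, pseudogenes and unnamed models left out; the 5 largest linear differences in either direction among called genes; and in each list up to 3 called members per direction, or else the 2 most abundant. Members and lists were chosen with earlier results of these data known. Alternatives covered the pseudocount, filters, scaling, samples in the fit, the trend, a replicate block, a fold threshold and leaving out replicates. Positions are those of the deposited table, and promoters are from RefSeq. A result is not reported here.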

Additional observations from a re-analysis of the deposited data

Results flagged for a closer look

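The interaction of Cmas and C1galt1c1 knockout was called in 4736 genes, and for the genes named above that were called, the interactions follow on the log2 scale (MC38-DKO minus both single knockouts plus MC38-MOCK#1, limma). All rest on the same 3 MC38-MOCK#1 libraries. Knockout effects, levels particular to a line and levels shared by MC38-DKO and MC38-MOCK#1 cannot be told apart in them.

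Among genes called between MC38-DKO and MC38-MOCK#1 they were negative for Pacs1 (-8.04), Grem1 (-7.92), Sdc3 (-4.08) and Vcam1 (-1.29). They were positive for Nutm1 (6.33), Ripk3 (5.17), Igfbp5 (2.40), Sh3bp4 (1.71), Gigyf2 (1.13), Eif4e2 (1.07), Atg16l1 (0.97), Usp40 (0.96), Dgkd (0.94) and Cops7b (0.84). C1galt1c1 had 0.73.

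Among abundant members of the lists, the galectins Lgals3 and Lgals1 had -3.15 and -0.91. Matrix genes were negative, with Spp1 at -2.15, Col3a1 at -1.51, Col5a1 at -1.33 and Fn1 at -1.28. So were the lipid enzymes Scd2 at -1.47 and Fasn at -0.41, the chaperones Hsp90b1 at -1.01 and Calr at -0.43, and Csf1 at -1.05, St3gal4 at -0.67 and Ccnd1 at -0.39. Positive values were found for Vil1 (3.29, from under 10 normalized counts in MC38-DKO and MC38-MOCK#1), St3gal5 (0.86), Samhd1 (0.72) and Tgfb1 (0.41).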

How the results depend on the processing

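The count of 20 genes between MC38-DKO and MC38-MOCK#1 changed with several settings. It was 40 with upper-quartile scaling, 40 with eBayes without trend, 88 with the 4 knockout-arm lines in a single fit and 159 with all 8, and 0 with the replicate block, in which 1408 genes were at an unadjusted p below 0.05. Same-numbered libraries of the 2 lines had correlated deviations of -0.15, -0.0017 and -0.13, so the numbers were not taken to pair samples. Leaving out replicates gave 0 to 4 genes, and leaving out both interferon-high libraries, an alternative chosen after seeing the data, gave 0. For the lists, 3 called genes became 5 with upper-quartile scaling, 16 with all 8 lines, 11 with the 4 lines, 0 with the replicate block, 0 to 1 without a replicate, and 0 without both interferon-high libraries.

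Between MC38-DKO and MC38-CMAS KO 1515 genes became 591 with a log2 fold change above 1 as well, 2403 with all 8 lines, 2476 with the 4 lines, 692 with eBayes without trend, 795 with the replicate block and 231 to 761 without a replicate. Between MC38-DKO and MC38-COSMC KO 2838 became 794 with the fold threshold, 1238 without trend and 1050 to 2154 without a replicate. The interaction gave 3925 to 4697 without a replicate, and its other alternatives stayed within 1.5 times of 4736. The cause of these shifts was not tested. The median of chromosome 1 stayed at -0.13 with a mean of at least 50. No called gene changed direction under any alternative run. With 3 samples a line, and a shallower MC38-DKO replicate 1, Ripk3 was the only call that changed by less than 1 on the log2 scale.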
